A study of Mus musculus with 768 samples.

Results

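Luminal cells of N1ICD-EGFP mammary glands were compared between the cells with the most and the cells with the least casein mRNA. They were chosen by a rule on their own reads. Levels are given as CPM, the reads of a gene divided by all gene reads of the cell or group and scaled to one common total. Of the 384 wells of the N1ICD-EGFP plate, 73.7% held at least 50000 reads and 1000 detected genes. Of these, 74.9% had the luminal keratin Krt8 at 10 CPM or more, and 74.1% of those also had at least 2 of Kit, Elf5, Aldh1a3 and Ltf at that level, which is 55.5% of the wells that passed the depth filter. None of the cells so chosen reached 3 of the 7 hormone-sensing markers Prlr, Foxa1, Wnt4, Pgr, Esr1, Cited1 and Areg. They were ranked by the sum of Csn1s1, Csn1s2a, Csn2 and Csn3. The upper 52 are called casein-high, the lower 52 casein-low and the 53 between them middle cells. These cells came from a series of 768 wells. Because the ranking and the comparison used the same cells, all differences below are descriptions without a test.

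The series holds 1 plate per genotype, sequenced by Smart-Seq2, a full-length method with 1 sorted cell per well. The genotypes were WAP-CRE; R26-N1ICD-EGFP and, in the control, WAP-CRE; R26-tdTomato, both on C57BL/6. All cells therefore came from animals in which Cre is driven by the promoter of Wap, a milk protein gene, and N1ICD, the constitutively active intracellular piece of Notch1, could be made only where that Cre had acted. Inguinal glands were taken at a stage given as 3-4 months lactation, and reporter-positive cells were sorted. Whether the 3 to 4 months are an age of the animals or a time of lactation is not clear from this wording. No animal is named, so each plate was treated as 1 sample. Whether a plate holds cells of 1 or several animals is not given in the sources used here, and neither is the exact stage of lactation or regression.

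Caseins are the main milk proteins and are made by alveolar cells, the secretory luminal cells of the gland. Prolactin acts through its receptor, Jak2 and Stat5 to switch on casein genes, with glucocorticoid receptor, Elf5 and C/EBP factors as partners. Secretory cells arise from luminal progenitors, which carry Kit, Elf5 and Aldh1a3, and active Notch signalling is known to favour luminal progenitor fate and to hold back alveolar differentiation. Hes and Hey genes are direct Notch targets.

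The genes that ranked the cells lie close together on mouse chromosome 5. The RefSeq table for GRCm38.p6 gave 250 bases before the start of 3 of them, shown because the Stat5 consensus TTCNNNGAA, which reads the same on both strands, could be looked for there. Capitals mark a match. Csn1s1 is at chr5:87665958-87666207 on the plus strand, Csn2 at chr5:87699426-87699675 on the minus strand and Csn1s2a at chr5:87774200-87774449 on the plus strand, and each sequence reads 5′ to 3′ toward its gene.
Csn1s1: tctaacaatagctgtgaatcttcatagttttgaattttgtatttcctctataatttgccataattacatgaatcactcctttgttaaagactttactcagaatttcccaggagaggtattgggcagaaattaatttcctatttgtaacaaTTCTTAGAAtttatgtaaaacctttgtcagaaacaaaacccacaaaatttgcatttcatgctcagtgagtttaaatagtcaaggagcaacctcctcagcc
Csn2: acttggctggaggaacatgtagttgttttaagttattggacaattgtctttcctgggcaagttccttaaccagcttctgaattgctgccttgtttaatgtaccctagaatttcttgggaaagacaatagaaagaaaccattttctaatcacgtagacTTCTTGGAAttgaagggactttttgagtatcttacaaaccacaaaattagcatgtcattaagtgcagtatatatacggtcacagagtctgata
Csn1s2a: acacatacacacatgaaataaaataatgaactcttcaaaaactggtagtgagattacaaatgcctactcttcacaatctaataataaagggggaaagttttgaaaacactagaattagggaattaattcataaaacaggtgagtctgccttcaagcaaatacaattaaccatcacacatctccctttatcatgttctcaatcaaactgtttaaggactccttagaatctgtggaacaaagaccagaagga
The match spanned bases 100 to 92 before the start in Csn1s1 and bases 93 to 85 in Csn2, and these letters were not in the Csn1s2a window. Of 27025 promoter windows of this length in the table, 7.18% held a match. The share was 5.62% of 5393 compared genes with a window, 5.14% of the 506 among those counted higher in casein-high cells and 5.601% of the 607 counted lower. A match is a description of letters, not of a binding site.

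The casein sum spanned from 8490 to 42006 CPM in casein-high cells (median 14723), from 254.6 to 8353 in middle cells (median 2895) and from 0 to 224.4 in casein-low cells (median 3.20). These values made the groups. At the upper border the last casein-high cell had 8490 CPM and the first middle cell 8353, so the border falls in a run of like values. At the lower border the last middle cell had 254.6 CPM and the first casein-low cell 224.4. The steep part of the ranking lay in and just above the casein-low cells, where 16 of 52 had no casein read at all. Among single genes, Csn1s1 was read in 52 casein-high, 39 middle and 16 casein-low cells. Csn3, the micelle-surface kappa casein, was read in 51, 51 and 28 cells. The beta casein Csn2 was read in 45, 25 and 7, and Csn1s2a in 23, 5 and 1. Across all ranked cells the pairwise Spearman correlations of the 4 genes lay between 0.44 and 0.68, as a description.

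The lowest values were at the level of cells that should lack caseins. On the same plate 42 cells had no Krt8 read and at least 3 leukocyte markers at 10 CPM, with casein sums from 0 to 119.02 CPM and a median of 3.26. A casein read was present in 30 of these 42 cells, whose median depth was 356180 reads. Of the 52 casein-low cells, 48 were at or below 119.02 CPM, and their casein reads are therefore background-sized. Such cells made up 30.6% of the ranked cells (exact Clopper-Pearson interval 23.5 to 38.4). The same rule ranked control cells in groups of 73, 75 and 73, and 0 of these were at or below that level (exact interval 0 to 1.66%). A limit of 3 cells of the total would be 1.36%. The background on the control plate was higher, from 0 to 3120 CPM with a median of 29.4 in 15 leukocyte-marker cells. At least 4 ranked control cells, at 100 to 1000 CPM, lay below that maximum. At 10000 CPM or more there were 39 ranked N1ICD-EGFP cells (24.8%, 18.3 to 32.4) and 190 ranked control cells (85.97%, 80.7 to 90.3). With 1 plate per genotype, genotype and plate cannot be told apart. In the control plate the lower 73 cells still had a median casein sum of 10982 CPM, so casein-low has a different meaning there.

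**Figure D1:**
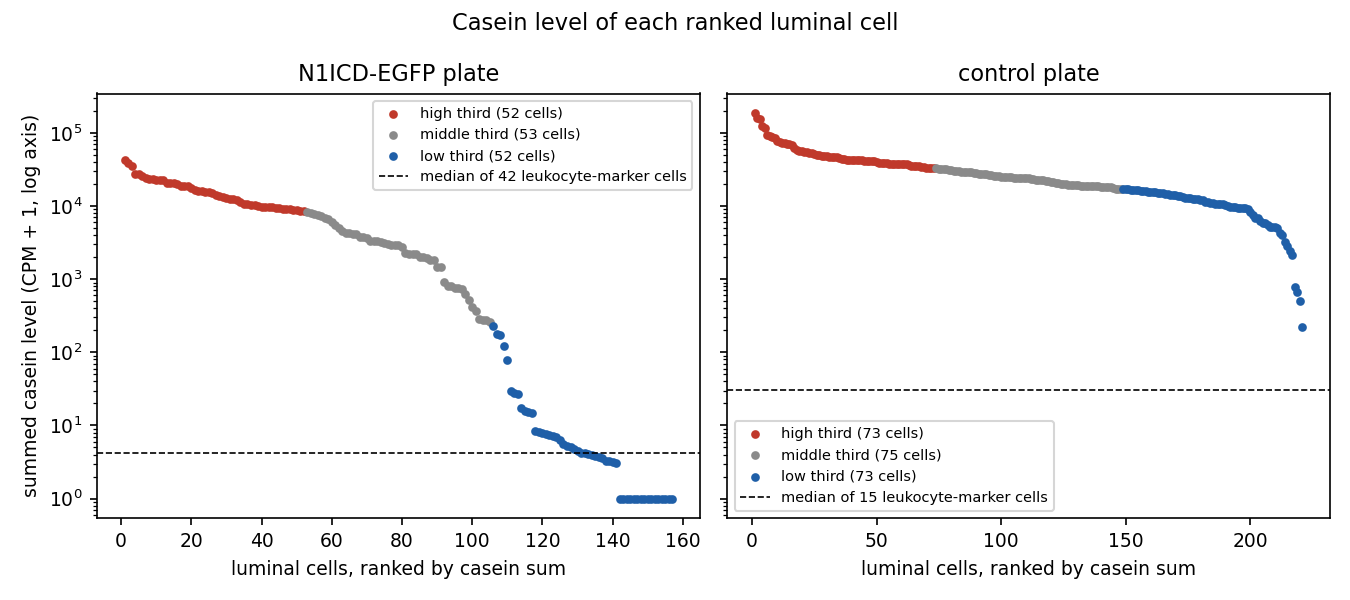
Summed level of the 4 ranking caseins (CPM plus 1, log axis) for each luminal cell, ordered by rank on each plate and coloured by casein group. The dashed line is the median of the plate's leukocyte-marker cells (42 and 15 cells). The N1ICD-EGFP cells run down to 0 CPM, while the lowest control cell stands at 222.2 CPM.

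Depth and reporter signal differed little between the groups. Median reads per cell were 374886 in casein-high, 402969 in middle and 355546 in casein-low cells, with 2825, 2792 and 2690 detected genes, or 2353, 2347 and 2283.5 after thinning every cell to 50000 reads. The casein sum had a Spearman correlation of 0.12 with reads and 0.05 with detected genes over the ranked cells. EGFP was read in 26 of 52 casein-high, 24 of 53 middle and 24 of 52 casein-low cells, at 53.5, 39.6 and 43.9 CPM. EGFP per non-casein read had a rank correlation of -0.002 with the casein sum. Well columns 1 to 12 held 22 casein-high and 25 casein-low cells, and columns 13 to 24 held 30 and 27. No 2 ranked wells had identical counts.

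The cells of all groups carried luminal markers. Krt8, required by the rule, was at 764 CPM in casein-high and 967 in casein-low cells. Basal markers (8 genes) reached 10 CPM for at least 2 genes in 4 casein-high, 3 middle and 5 casein-low cells, and their summed level ran from 0 to 927 CPM, 0 to 719 and 0 to 9249. The basal gene Trp63 had no read in casein-low cells, and Krt5 and Krt17 had none in casein-high cells. Leukocyte markers (10 genes) reached 10 CPM for at least 2 genes in 1, 3 and 3 cells, with summed levels from 0 to 2344, 0 to 1468 and 0 to 1379 CPM. Fibroblast markers (6 genes) did so in no cell, with Col1a1 and Lum at 0 in casein-high and Col1a2, Lum and Pdgfra at 0 in casein-low cells. Their summed levels ran from 0 to 1871 CPM in casein-high, 0 to 15.4 in middle and 0 to 64.8 in casein-low cells. Pdgfra was at 26.8 CPM in casein-high cells, with 3 cells at 10 CPM or more. Endothelial markers (4 genes) reached 10 CPM for at least 2 genes in 1 casein-low cell. Of the 3 adipocyte markers, Adipoq and Plin4 were at 0 in every group. Plin1 had 43 reads in casein-high, 1 in middle and 12 in casein-low cells, in 1 cell of each group.

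For all other genes, reads were summed over the 52 cells of each group and scaled to the total without caseins. Log2 ratios compare CPM plus 1, and are positive where casein-high cells were higher. In all, 6604 genes had 10 CPM or more and were read in at least 20% of cells in either group, and their median log2 ratio was -0.09. A gene was counted when the ratio was at least 2-fold and pointed the same way in the mean of per-cell log values and in both well-column ranges. By this rule 622 genes (9.42%) were counted higher and 745 (11.3%) lower in casein-high cells. These shares are the background for all counts of list members below. The same comparison within the control plate, between its upper and lower 73 cells, counted 5.47% of 7001 genes higher and 6.04% lower. Single cells of 1 kind scatter widely in this assay, and the rule does not separate this scatter from a difference tied to casein, so these counts are not numbers of changed genes. Few cells can carry a sum, so the cells with a read are given for part of the genes. Sums given alone may rest on few cells.

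Some other milk protein and milk fat secretion genes were higher in casein-high cells. Of 15 milk protein genes besides the ranking ones, 7 passed the filter, 4 were counted higher and 0 lower, with a median log2 ratio of 1.45. The median was 0.79 when only cells with at least 100000 reads were used and 2.41 when only cells with an eGFP read were used. Among all compared genes 9.42% were counted higher and 11.3% lower. Transferrin (Trf, chr9:103208876-103230286), an iron carrier secreted into milk, spanned 3170.5 to 79840.4 CPM per casein-high cell with a median of 23870.4. It spanned 0 to 15521.5 in casein-low cells with a median of 18.9. The groups overlapped only in the range from 3170.5 to 15521.5 CPM, and the middle cells had a median of 8844. The summed level was 26480 CPM against 1826, a 14.5-fold difference (counting interval 14.3 to 14.7). Folr1, a folate receptor shed into milk, was read in 16 casein-high and 2 casein-low cells, at 73.9 against 2.09 CPM. The membrane mucin Muc15 was at 1331 against 479 CPM, and Pigr, which carries immunoglobulin A into milk, at 138.1 against 49.9. In middle cells Pigr was at 49.5 CPM, and its Spearman correlation with the casein sum was 0.06. Its log2 ratio was 0.70 among cells with at least 100000 reads. Mfge8 (0.80), Muc1 (0.69) and B4galt1 (0.58), the other members that passed, had positive log2 ratios under 2-fold.

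The whey protein genes themselves were nearly silent. Lalba, the cofactor of lactose synthesis, had 66 reads in 2 casein-high cells, none in middle cells and 3 reads in 1 casein-low cell. Wap had 52 reads in 1 middle cell and none in casein-high or casein-low cells. Csn1s2b, the fifth casein gene, had no read in any group. In the control plate Lalba was at 149.1 CPM in the upper 73 cells and 29.1 in the lower 73, and Wap at 2.89 and 1.45.

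Milk fat droplets are coated and released by Plin2, Xdh and Btn1a1, and these 3 were the genes counted higher among 8 that passed the filter of 19 in the list of milk fat uptake, storage and secretion. None was counted lower and the median log2 ratio was 0.55, with -0.035 in well columns 1 to 12 and 1.71 in columns 13 to 24. The shares over all compared genes were 9.42% higher and 11.3% lower. Plin2, the droplet coat protein (chr4:86626910-86670217), ran from 0 to 4108 CPM in casein-high cells with a median of 1313, and from 0 to 1591 in casein-low cells with a median of 0. It was read in 48 casein-high, 45 middle and 25 casein-low cells. The summed levels were 1722, 975 and 125.7 CPM, a 13.7-fold difference between the outer groups (13.1 to 14.3). Xdh, xanthine oxidoreductase, ran from 0 to 3765 CPM (median 329.2) and from 0 to 2204 (median 0), and was read in 40, 27 and 12 cells. Its summed levels were 596, 241.01 and 69.4 CPM. Btn1a1, butyrophilin, was at 1037, 885 and 357.996 CPM, so that middle cells lay near the casein-high level. Of 16 genes that make fatty acids, 10 passed, 2 were counted higher and 0 lower, with a median of 0.49, which was -0.31 when the upper 78 cells were compared with the lower 78. The 2 were the lipogenic regulator Srebf1, at 178.6 against 58.8 CPM, and malic enzyme Me1, at 137.8 against 46.4. Fatty acid synthase Fasn had a log2 ratio of 0.57, Acly -0.50 and Scd1 -0.09.

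**Figure D2:**
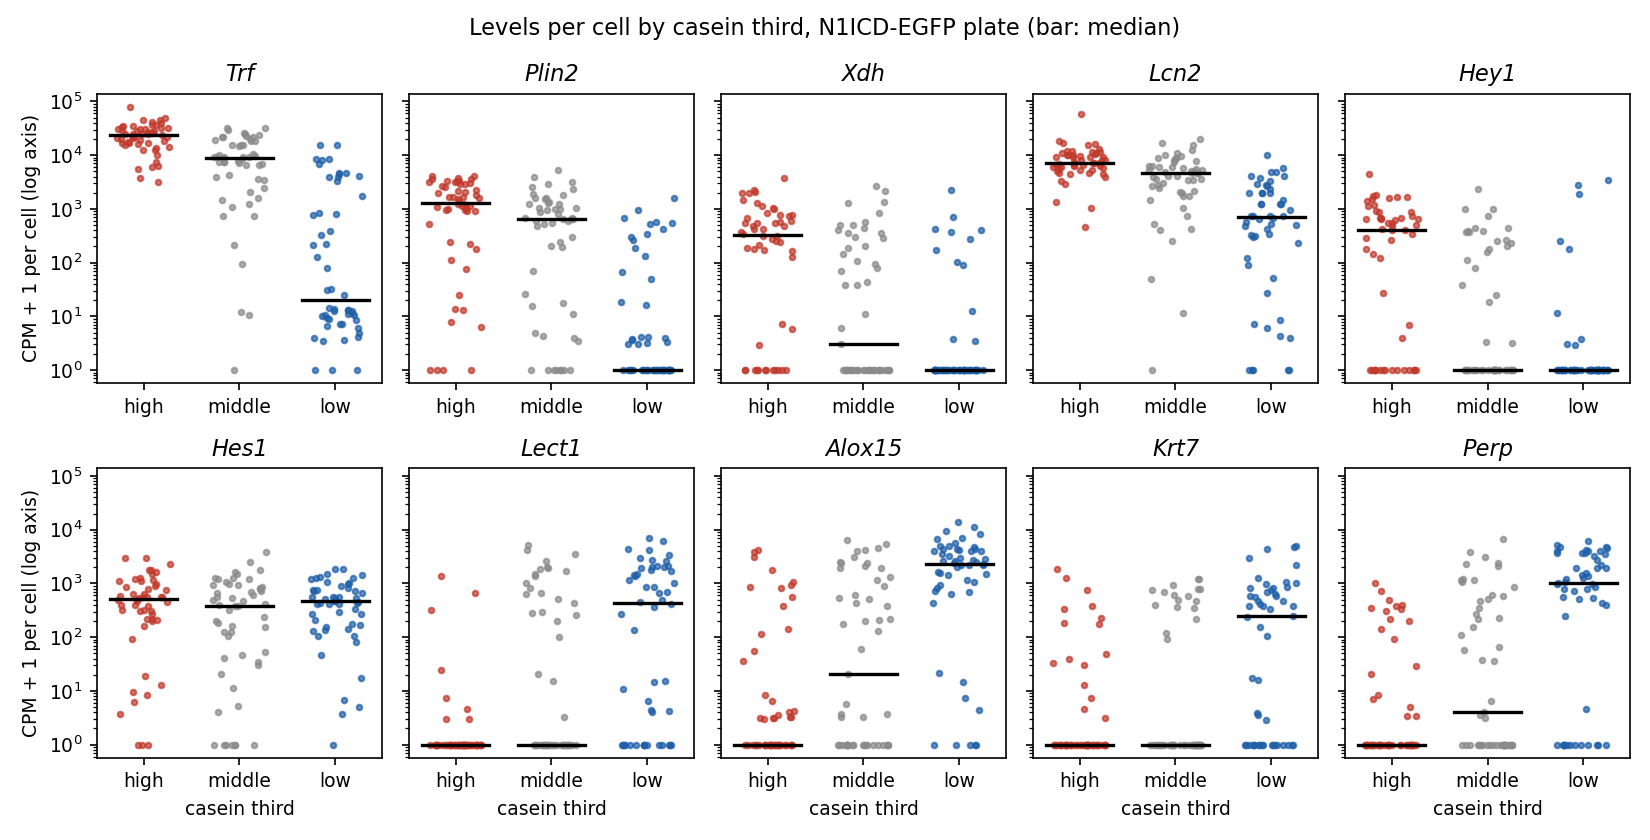
Level of 10 genes in each ranked N1ICD-EGFP luminal cell (CPM plus 1, log axis), split into casein-high, middle and casein-low cells, with the median as a bar. Trf, Plin2, Xdh, Lcn2 and Hey1 have higher medians in casein-high cells, Lect1, Alox15, Krt7 and Perp in casein-low cells, and Hes1 lies at like medians (506, 388 and 464 CPM).

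The prolactin and Stat5 genes that were counted were all higher in casein-high cells. Of 18 genes 15 passed, 6 were counted higher and 0 lower, and the median log2 ratio was 0.87. The shares among all compared genes were 9.42% higher and 11.3% lower. Stat5a, the transcription factor that acts on casein promoters such as those printed above, ran from 0 to 1218 CPM in casein-high cells with a median of 14.9 and from 0 to 747 in casein-low cells with a median of 0. It was read in 28, 24 and 15 cells, and the summed levels were 146.6, 102.3 and 61.8 CPM. The log2 ratio of Stat5a was 0.37 in well columns 1 to 12 and 2.90 in columns 13 to 24, so its size rested on 1 side of the plate. Stat5b was just under 2-fold (114.1 against 57.8 CPM, log2 ratio 0.97). The prolactin receptor Prlr, a gene of the membership rule, was read in 17 casein-high and 8 casein-low cells, at 49.4 and 31.4 CPM, and its direction differed between the well-column ranges (1.81 and -1.09). The feedback inhibitor Socs3 was at 173.04 against 39.2 CPM. The growth hormone receptor Ghr was at 72.8 against 20.1 CPM, read in 15 and 13 cells. The insulin-like growth factor receptor Igf1r was at 183.6 against 75.96 CPM, read in 34 and 22 cells. The luminal factor Gata3 was at 909 against 415 CPM and the receptor Erbb4, which can activate Stat5a, at 34.8 against 13.1. Erbb4 was read in 12 and 7 cells only, and its direction turned under 2 of the other settings. The further Stat5 targets Cish (0.59) and Socs2 (0.28) stayed under 2-fold. The insulin receptor Insr (-0.21) and the phosphatase Ptpn1 (-0.16) had small ratios in the other direction. Elf5, which was part of the rule, was at 245.02 against 167.96 CPM.

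The lists of the secretory machinery had medians near 0, and the shares counted over all compared genes were 9.42% higher and 11.3% lower. Of 22 chaperones and stress factors of the endoplasmic reticulum 20 passed, 4 were counted higher and 1 lower, with a median of 0.15. Those higher were the disulfide isomerases Pdia4 (147.98 against 62.1 CPM) and Pdia6 (238.9 against 105.1), the degradation factor Herpud1 (313.3 against 102.9) and the stress factor Ddit3 (24.96 against 2.72, read in 12 and 5 cells). Pdia4 was highest in middle cells, at 171.2 CPM, and its log2 ratio was 0.11 with at least 3 of Kit, Elf5, Aldh1a3 and Ltf. Creld2 was lower, at 19.96 against 106.6 CPM, read in 5 and 19 cells. The main chaperone Hspa5 had a log2 ratio of 0.36. Of 21 genes of translocation and traffic 19 passed and none was counted in either direction (median -0.05). Cytosolic ribosomal proteins had 0 genes higher and 1 lower of 55 that passed (median -0.18), and oxidative phosphorylation genes 0 higher and 2 lower of 75 (median -0.16). Among transporters the neutral amino acid carrier Slc1a4 was at 316.7 against 81.5 CPM, the only gene counted of 7 that passed. The water channel Aqp5 was at 220.8 against 88.8 CPM, the only gene counted of 9 in the list of calcium, zinc and ion transport.

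**Figure D3:**
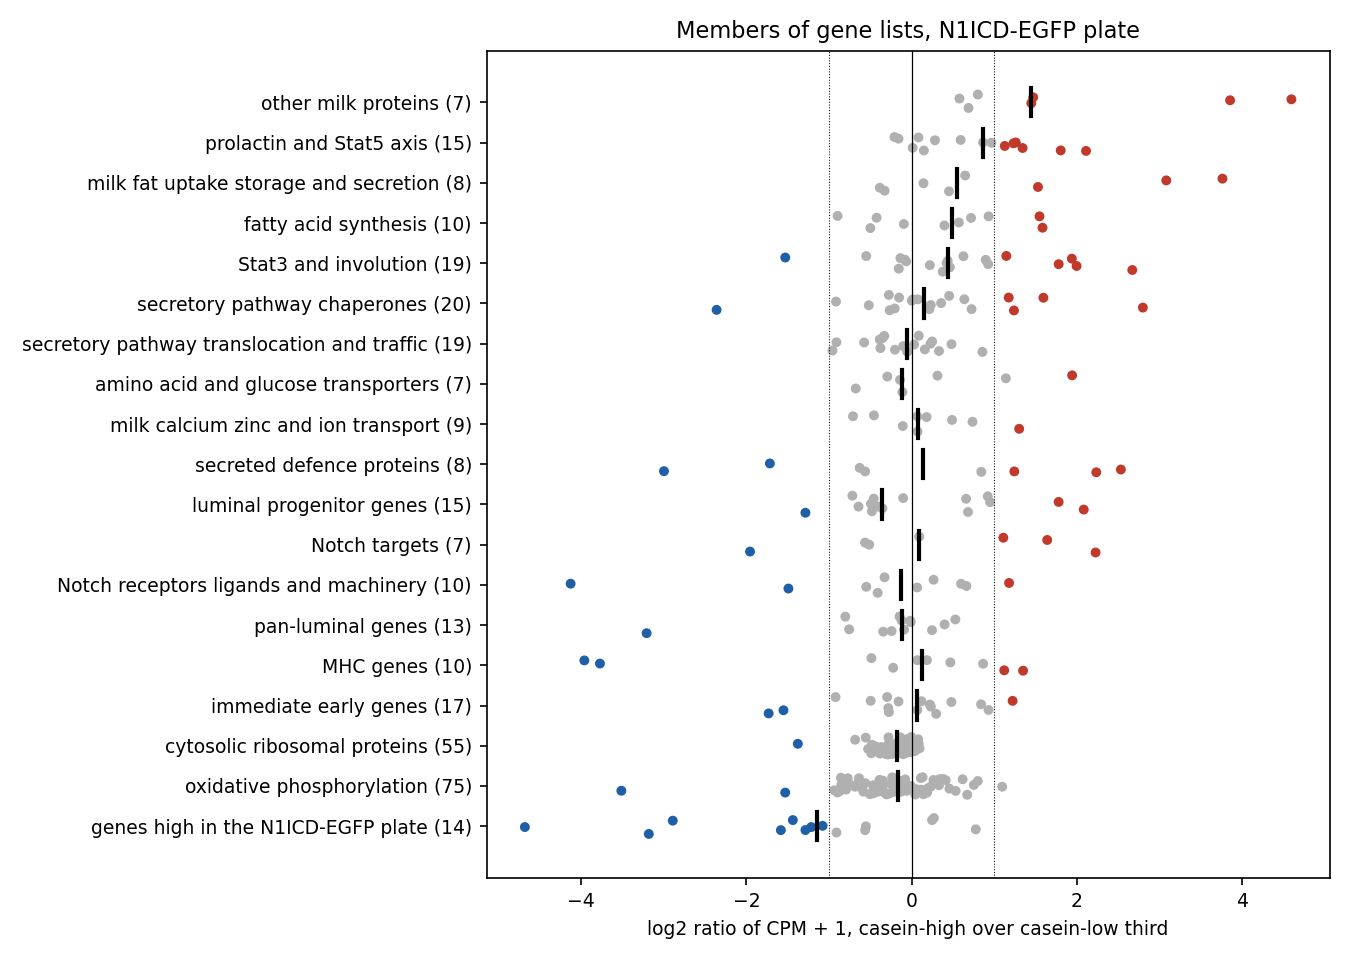
Log2 ratio of CPM plus 1, casein-high over casein-low cells, for each member of 19 gene lists that passed the filter (number in parentheses). Red and blue points were counted higher and lower, grey points were not counted, black bars are list medians and dotted lines mark 2-fold. The milk protein list has the highest median (1.45) and, of the lists shown, the genes high on this plate the lowest (-1.15).

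The 12 largest ratios above 1 belonged to genes read in 11 to 24 casein-high and 0 to 5 casein-low cells. They were Aqp1, Crispld2, Lrrc32, Stac2, Galm, Fam20a, Spns3, Mkrn2, Hps3, Chil1, Folr1 and Gstk1. The water channel Aqp1 (chr6:55336299-55348555) was read in 24 casein-high, 12 middle and 2 casein-low cells, with up to 4222 CPM in a casein-high and up to 3.42 in a casein-low cell. Its summed levels were 595, 100.7 and 0.116 CPM, and 2 reads in casein-low cells give a ratio of 5134 with a counting interval of 1421 to 42399.9. Crispld2, a secreted protein (chr8:119992438-120052794), was read in 17, 7 and 0 cells, with up to 1794 CPM per casein-high cell. Against a floor of 3 reads over the casein-low group it was at least 761-fold higher. Lrrc32, a cell-surface anchor of latent TGF-beta, was read in 18, 5 and 1 cells, at 103.5 against 0.0579 CPM (ratio 1787, interval 320.4 to 70628). Chil1, a secreted chitinase-like lectin, was read in 20, 11 and 3 cells, at 472 against 18.4 CPM. The 2 sides of the plate gave Chil1 ratios of 1.83 (columns 1 to 12) and 9.51 (columns 13 to 24) on the log2 scale. Fam20a, a partner of the kinase that phosphorylates secreted proteins including caseins, was read in 20, 9 and 2 cells, at 107.6 against 1.22 CPM. Since these genes were chosen for their ratio, their number per cell repeats that choice, and whether they occur together more often than apart was not tested. In middle cells, which the choice did not use, a median of 1 of the 12 reached 10 CPM.

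The 12 largest ratios in the other direction were those of Nkd2, Col6a2, Col6a1, Krt14, Phldb2, Gprc5a, Mgat3, Stra6, Cdh15, Tbx3, Duox2 and Aspa. Nkd2, an inhibitor of Wnt signalling at Dishevelled (chr13:73818534-73847631), was read in 3 casein-high, 8 middle and 26 casein-low cells. It ran from 0 to 7.48 CPM in casein-high cells and from 0 to 5884 in casein-low cells, where the median was 1.76. Its summed levels were 0.161, 144.02 and 818 CPM, a ratio of casein-low over casein-high of 5070 with an interval of 1734 to 24586 because only 3 reads stand on 1 side. Gprc5a, a retinoid-induced membrane protein, was read in 2, 20 and 27 cells and was at 1.67, 121.2 and 638 CPM. Phldb2, a scaffold at the cell cortex, was read in 3, 12 and 25 cells and was at 0.269, 46.7 and 354.2 CPM. Tbx3, a transcription factor of mammary development, was read in 0, 5 and 20 cells and was at least 577-fold higher in casein-low cells against the floor. Mgat3, a glycan-branching enzyme, was read in 0, 2 and 15 cells (at least 1463-fold) and Aspa in 0, 2 and 12 (at least 516-fold). Stra6, a vitamin A transporter, was at 0.108 against 192.9 CPM (2 reads in casein-high cells, ratio 1793, interval 496 to 14810). Cdh15, a cadherin, was at 0.108 against 184.1 CPM (2 reads, ratio 1711, interval 473 to 14134), and Duox2, an oxidase that makes hydrogen peroxide at the cell surface, at 0.0538 against 94.1 (1 read, ratio 1750, interval 313.7 to 69174).

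Collagen VI and basal keratin genes were also among the 12. The neighbouring collagen VI genes Col6a1 (chr10:76708792-76726044) and Col6a2 (chr10:76595756-76623630) were each read in 17 casein-low cells, with up to 4485 and 6657 CPM in 1 cell and medians of 0. The basal keratin Krt14 was read in 2, 3 and 11 cells, with a median of 0 and up to 9246 CPM. Its sum of 537 CPM in casein-low cells stood beside 0.914 in casein-high cells. Of 12 genes in the basal and myoepithelial list, only Krt14 and Cnn2 passed the filter. They passed through the casein-low group alone, so that both were counted lower in casein-high cells says little about the list. Members that did not pass went both ways between casein-high and casein-low cells. Trp63 was at 15.3 against 0 CPM and Myh11 at 3.77 against 0.406, but Krt5 at 0 against 15.7 and Krt17 at 0 against 16.3. When the 12 ranked cells with at least 2 basal markers were left out, the outer groups were redrawn at 48 cells each. Of those left out, 4 were casein-high and 5 casein-low. The log2 ratios were then -8.99 for Krt14, -8.65 for Col6a1 and -8.70 for Col6a2, against -8.13, -8.19 and -8.58 before. As a description of the chosen genes, at least 3 of the 12 reached 10 CPM in 28 casein-low, 5 middle and 0 casein-high cells, and at least 6 in 17, 1 and 0. In the control plate none of the 12 passed the filter.

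**Figure D4:**
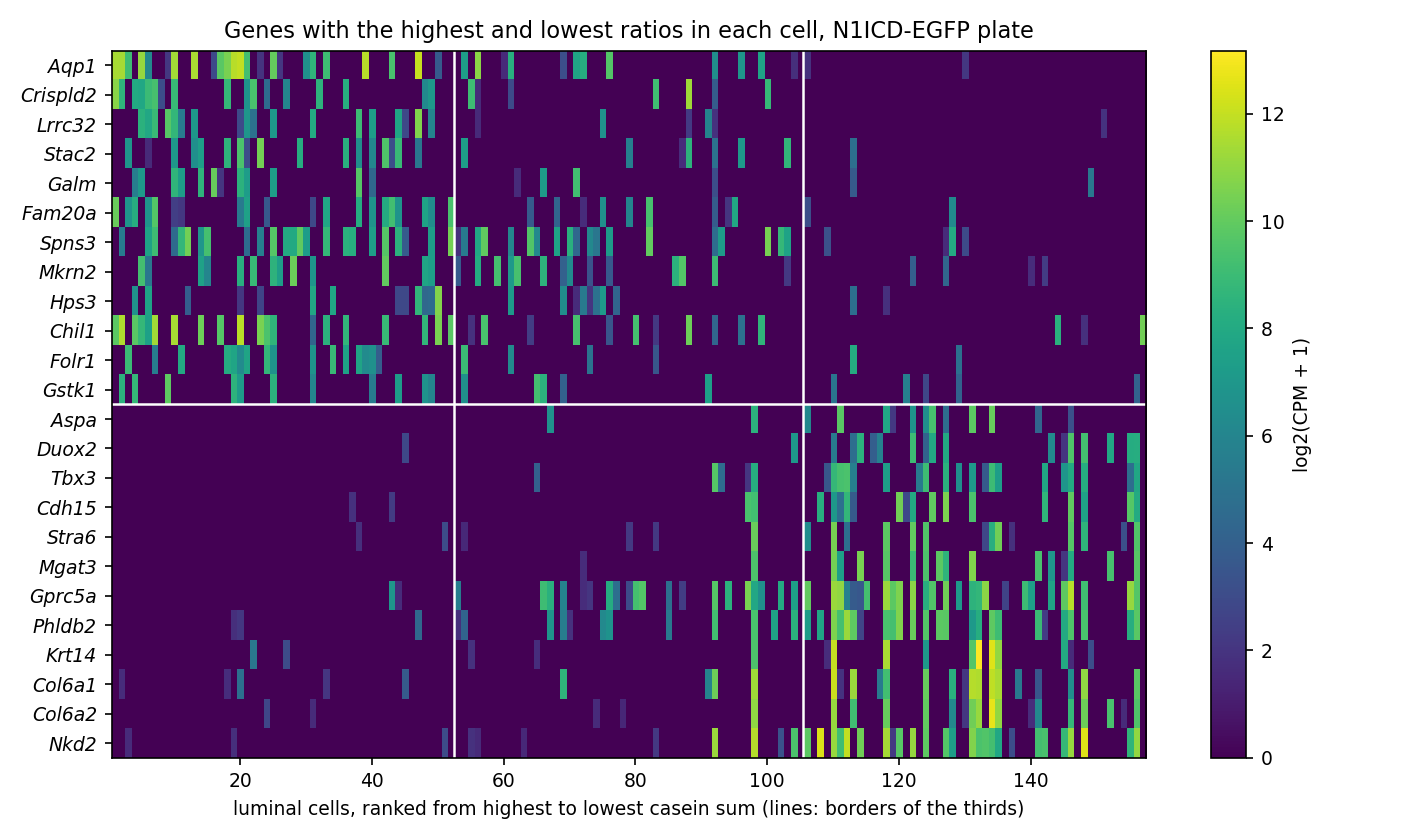
Level, as log2 of CPM plus 1, of the 12 genes with the highest (upper rows) and the 12 with the lowest ratios (lower rows) in each ranked N1ICD-EGFP luminal cell, ordered by casein sum. White lines mark the borders of the casein groups (52, 53 and 52 cells) and of the gene sets. The upper genes thin out from left to right, and the lower genes are found mainly in the 52 cells at the right, several in the same cells.

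Of 14 genes that are high on the N1ICD-EGFP plate compared with the control, 8 were counted higher in its casein-low cells. The list was taken from earlier results on these data, so it is not independent. All 14 passed and 0 were counted higher in casein-high cells, with a median log2 ratio of -1.15. The shares over all compared genes were 9.42% higher and 11.3% lower in casein-high cells. Lect1, which encodes chondromodulin, an inhibitor of vessel growth first known from cartilage (chr14:79637682-79662194), was read in 8 casein-high, 24 middle and 37 casein-low cells. It ran from 0 to 1364 CPM (median 0) in casein-high and from 0 to 6980 (median 438) in casein-low cells. The summed levels were 55.4, 619 and 1447 CPM, 26.1-fold apart in the outer groups (24.5 to 27.8). The lipoxygenase Alox15 (chr11:70344147-70390538) was read in 25, 32 and 47 cells, and was at 380.2, 870 and 3457 CPM. Its per-cell median was 0 in casein-high and 2346 CPM in casein-low cells. The related epidermal lipoxygenase Alox12e was at 1246, 2054 and 3731 CPM, with log2 ratios of -0.39 (columns 1 to 12) and -3.37 (columns 13 to 24). The cytoskeletal protein Palmd was at 45.6 against 344.8 CPM, the scavenger receptor Cd163 at 38.9 against 83.3 and the transcription factor Foxc1 at 69.4 against 170.6. The fibrillin Fbn2 was at 212.3 against 576 CPM but was read in 36 casein-high, 35 middle and 32 casein-low cells. Spon1 was at 89.7 against 209.5 CPM and was highest in middle cells, at 230.6. Haptoglobin (Hp), also of the list, was high in all groups, at 4241, 3996 and 6262 CPM. Lgals4 (0.78), Sp100 (0.27) and Cldn4 (0.25) had log2 ratios in the other direction under 2-fold.

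Other genes named here were also found in casein-low cells without Lect1. Of 52 casein-low cells, 32 had Lect1 at 10 CPM or more. Alox15 was at that level in 30 of these 32 and in 15 of the other 20 cells, Perp in 27 and 11, Krt7 in 19 and 12, Nkd2 in 17 and 7, Tbx3 in 14 and 6, and Kit in 31 and 18. Of the same list as Lect1, Fbn2 was present in 22 and 8, Spon1 in 16 and 6 and Foxc1 in 24 and 11. EGFP was read in 18 of the 32 and in 6 of the 20 cells. These counts come from cells of 1 plate, and the differences between them were not tested.

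The Notch target genes that were counted went both ways. Of 15, 7 passed, 3 were counted higher and 1 lower, beside 9.42% and 11.3% of all compared genes. The median was 0.09. Hey1 (chr3:8663359-8667038) was read in 37 casein-high, 23 middle and 9 casein-low cells. It ran from 0 to 4522 CPM with a median of 411 in casein-high cells, and from 0 to 3386 with a median of 0 in casein-low cells. The summed levels were 573, 197.1 and 121.4 CPM, 4.72-fold apart (4.50 to 4.95), and the ranges of the groups overlapped from 0 to 3386 CPM. By plate side, Hey1 had a log2 ratio of 1.36 (columns 1 to 12) and of 7.38 (columns 13 to 24). Hey2 was at 88.3 against 27.6 CPM in 12 and 5 cells, and Myc at 207.04, 296.996 and 95.2 CPM. Hes1 did not follow the caseins. It was read in 49, 46 and 51 cells at 635, 613 and 595 CPM, a log2 ratio of 0.09. Nrarp (65.9 against 97.9 CPM) and Notch3 (84.99 against 121.6) were lower by less than 2-fold. Cyclin D1 (Ccnd1), which drives entry into S phase, was at 477, 650 and 1851 CPM, with per-cell medians of 146.5 in casein-high and 1381 in casein-low cells.

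Among receptors, ligands and partners 10 of 22 passed, 1 was counted higher and 2 lower, beside 9.42% and 11.3% of all compared genes. Notch1 was at 316.99, 271.3 and 302.3 CPM. Reads of N1ICD and of the animal's own Notch1 cannot be told apart in this row. The ligand Jag1 was read in 2, 4 and 11 cells at 2.90, 7.999 and 67.3 CPM. Rbpj, the DNA-binding partner of N1ICD, was at 28.8, 47.99 and 82.7 CPM, and Numb, an inhibitor of Notch, at 218.8, 116.3 and 95.9.

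Luminal progenitor genes gave no common direction. Of 20, 15 passed, 2 were counted higher and 1 lower, with a median of -0.35. Among all compared genes the shares were 9.42% higher and 11.3% lower. The pattern-recognition coreceptor Cd14 was at 1218, 874 and 353.5 CPM and the transcription factor Cebpb at 192.3, 173.02 and 44.6 CPM, while Foxc1 was lower as given above. Of the membership genes that passed the filter, Wnt4, a hormone-sensing marker, was counted lower (0 against 19.1 CPM), and the others were under 2-fold between the outer groups. Kit was at 922, 1015 and 925 CPM, Aldh1a3 at 314.03, 684 and 371.1 and Ltf, lactoferrin, at 2817, 2781 and 2431. Ltf was read in 31 casein-high and 34 casein-low cells but spanned 0 to 23005 and 0 to 32100 CPM, with per-cell medians of 35.4 and 2.91. Of 13 general luminal genes that passed, 0 were counted higher and 1 lower. That gene, the keratin Krt7, was read in 16, 17 and 34 cells at 68.8, 227.3 and 644 CPM, while Krt18 (-0.01), Krt19 (-0.34) and Epcam (-0.09) differed little.

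Secreted defence proteins went both ways. Of 8 that passed of 21, 3 were counted higher and 2 lower, beside 9.42% and 11.3% of all compared genes. The median was 0.14. Lipocalin 2 (Lcn2), which binds bacterial siderophores, ran from 451 to 58918 CPM in casein-high cells (median 7265) and from 0 to 9857 in casein-low cells (median 706). Its summed levels were 8393, 5063 and 1447 CPM. Complement C3 was at 190.3 against 79.7 CPM (read in 19 and 11 cells) and the lipopolysaccharide-binding protein Lbp at 107.8 against 22.1. The whey acidic domain genes Wfdc2 (36.4 against 297.8 CPM) and Wfdc18 (1455 against 4780) were lower in casein-high cells. Wfdc18 was read in all 52 casein-low cells, from 63.2 to 34976 CPM.

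Stat3 signalling drives involution, the regression of the gland after weaning. Of 21 genes of this list 19 passed, 5 were counted higher and 1 lower, beside 9.42% and 11.3% of all compared genes. The median was 0.44. Igfbp5, a binding protein of insulin-like growth factors, was at 2266, 1300 and 354.4 CPM and was read in 48, 40 and 26 cells. The cathepsin Ctsl was at 358.2, 322.3 and 92.5 CPM and the regulatory kinase subunit Pik3r1 at 1557, 1051 and 452. The receptor Osmr was at 446, 171.8 and 200.9 CPM. Il4ra was at 63.2, 85.1 and 15.1 CPM, read in 13, 12 and 7 cells. Osmr had log2 ratios of 2.87 (columns 1 to 12) and 0.40 (columns 13 to 24), and Il4ra turned to -0.11 among cells with at least 3 of the progenitor markers. The survival factor Bcl2l1 was lower, at 131.2, 199.01 and 380.6 CPM.

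Of 10 MHC genes that passed, 2 were counted higher and 2 lower, beside 9.42% higher and 11.3% lower among all compared genes. Class I H2-K1 was at 2583 against 1186 CPM and its partner B2m at 1428 against 559, and both were counted higher. Class II Cd74 (9.47 against 142.1 CPM) and H2-Eb1 (0.968 against 29.7) were counted lower, while class II H2-Aa (0.47) and H2-Ab1 (-0.48) were not counted. In casein-low cells single cells reached 4814 CPM of Cd74 and 1335 of H2-Eb1, and the per-cell medians of Cd74 were 2.32 and 2.91. When the 7 ranked cells with at least 2 leukocyte markers were left out, the outer groups were redrawn at 50 cells each. Of those left out, 1 was casein-high and 3 casein-low. The log2 ratio of Cd74 then went from -3.77 to -1.98 and that of H2-Eb1 from -3.96 to -0.42. Interferon genes had 2 higher and 0 lower of 7. Irf9 was at 110.2 against 29.8 CPM in 16 and 9 cells, and Bst2 at 22.4 against 8.23 in 12 and 5 cells. Immediate early genes, which respond to tissue dissociation, had 1 higher (Nr4a1) and 2 lower (Fosl2 and Hspa1a) of 17. Fos was at 16550 against 8670 CPM, a log2 ratio of 0.93. Of 5 S phase genes that passed, Rrm1 was higher and Mcm7 lower, and no G2 and M phase gene passed.

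A rank correlation over all ranked cells weighs single cells equally, and its extremes shared no gene with the 12 highest or the 12 lowest ratios. Among 6053 genes, the highest Spearman correlations with the casein sum were those of Trf (0.79), Lcn2 (0.67), Plin2 (0.63), Igfbp5 (0.55) and the chloride channel protein Clic6 (0.55). The lowest were those of Alox15 (-0.55), the lectin Lgals3 (-0.51), the desmosomal p53 target Perp (-0.51), Lect1 (-0.48) and the annexin Anxa1 (-0.47). These correlations share cells and depth and are descriptions. Clic6 was read in 40, 27 and 8 cells at 550, 341.4 and 52.8 CPM. Perp was read in 19, 29 and 39 cells at 117.96, 592 and 1913 CPM, and Lgals3 in 20, 28 and 44 cells at 79.4, 194.3 and 1043. Anxa1 was read in nearly every cell, at 1339, 2202 and 3253 CPM.

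Middle cells, which the comparison did not use, lay between the outer groups for all 12 genes with the highest and all 12 with the lowest ratios. This was so for 438 of the 622 genes counted higher (70.4%) and 552 of the 745 counted lower (74.1%), against 2610 of all 6604 compared genes (39.5%). Counted genes have outer groups that are further apart, which by itself widens the room between them.

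Part of the pattern had a counterpart in the control plate, whose casein-low cells had far more casein. Of 6100 genes compared on both plates, 54 were counted higher in both, which is 9.87% of 547 N1ICD-EGFP and 19.7% of the control genes. Lower in both were 77, which is 12.9% of 597 N1ICD-EGFP and 23.7% of the control genes. Over all 6100 genes the control plate counted 4.49% higher and 5.33% lower. Opposite directions were seen for 33 genes higher on the N1ICD-EGFP and lower on the control plate (6.03% of 547) and 26 the other way (4.36% of 597). Among genes named above, Plin2 (1.06), Btn1a1 (1.34), Igfbp5 (1.485), Folr1 (2.56), Chil1 (3.92) and Fam20a (2.17) were counted higher in the control plate too, with log2 ratios as given. So were Lrrc32, Stac2, Slc1a4, Srebf1, Pdia6 and Lbp. Of the 12 genes with the highest ratios, 9 were compared in the control plate, where 5 were counted higher and 1 lower. Trf (0.70), Xdh (0.66) and Hey1 (0.74) had positive control ratios under 2-fold. Gata3 (0.27), Cebpb (0.15) and Ghr (-0.09) were not counted there. The prolactin and Stat5 list had 0 genes counted higher and 2 lower of 15 on the control plate (median 0.15). Its milk protein list had 2 higher and 0 lower of 8 (median 0.41). Krt7 (-1.12), Perp (-1.05), Lgals3 (-1.62), Anxa1 (-1.35), Wfdc18 (-1.13), Palmd (-3.38) and Cd74 (-2.16) were counted lower there too. Lect1 was at 0.860 and 0.442 CPM in the upper and lower control cells, and Alox15 at 55.8 and 43.7. Ltf was at 5474 CPM in the upper and 20134 in the lower control cells (log2 ratio -1.88), against 0.21 on the N1ICD-EGFP plate. The difference between plates was not tested.

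**Figure D5:**
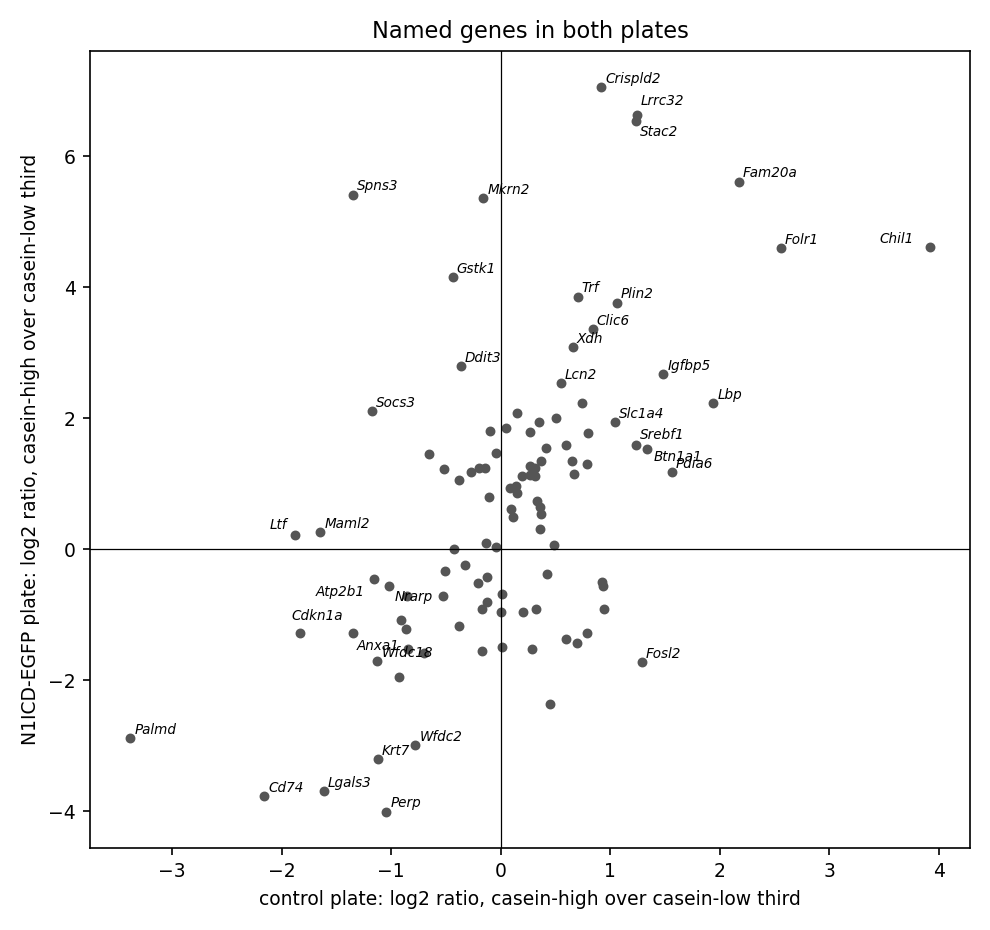
Log2 ratio of casein-high over casein-low cells in the control plate (horizontal axis) and the N1ICD-EGFP plate (vertical axis) for the named genes that passed the filter on both, with labels on those at 2-fold or more in the control or at a log2 ratio of 2.4 or more in size in the N1ICD-EGFP plate. Folr1, Chil1 and Fam20a lie far up on the right, Palmd, Perp and Lgals3 down on the left, and Socs3 and Spns3 up on the left.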

How the data were processed

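The authors deposited a table of unnormalized counts for each plate, with genes in rows and wells in columns, and Smart-Seq2 reads carry no molecular identifiers. Reads were aligned with STAR to mm10, per the submitters' processing notes. Which tool counted the reads, and whether it used strand, is not stated in the sources, so overlapping or antisense genes may share reads. Every value column was joined to a label, and 0 were unused. Rows that share a gene name (492 beyond the first) were summed, and eGFP was kept out of totals.

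Cells were filtered, chosen and ranked as the report states. Reads were summed per group of cells and scaled without the 4 ranking caseins, with a pseudocount of 1. No p-values were computed, since a plate is 1 sample and cells are not replicates. Sums have exact Poisson 95% intervals, ratios of 2 sums exact conditional binomial ones and shares Clopper-Pearson ones. All cover counting error only, not the spread between cells or animals. Where a group had 0 reads, folds were computed against 3 reads over that group. Doublets were not called, and an alternative left out cells with many genes. The comparison was run on simulated cells, with both groups drawn from the middle cells and some widely read genes thinned in 1 group or the other. That run does not bear on genes read in few cells, and its outcome is not used here. Named are the 12 highest and 12 lowest ratios among counted genes at 20 CPM or more and read in at least 20% of cells of the higher group, without predicted and ribosomal protein genes and genes of the membership rule. Up to 2 members per list and direction, 22 fixed genes and the 5 highest and 5 lowest Spearman correlations were added. A further 19 genes, among them Btn1a1, Muc15, Pigr, Erbb4, Gata3, Palmd, Alox12e and Ctsl, and list members given by a ratio alone, were chosen after their values were seen. Cells, lists and rules were all chosen with earlier results of these data known. Coordinates and promoter sequences are from RefSeq tables for GRCm38.p6, the assembly behind mm10, which matched all 137 named genes. Python 3.11.15, numpy 2.4.6, pandas 2.3.3 and scipy 1.17.1 were used.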

Additional observations from a re-analysis of the deposited data

Results flagged for a closer look

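Of the named genes, 3 were counted in opposite directions on the 2 plates, and none of these differences was tested. Socs3, a feedback inhibitor of cytokine signalling, had a log2 ratio of casein-high over casein-low cells of 2.11 on the N1ICD-EGFP plate and -1.17 on the control plate. Spns3, a transporter-like membrane protein, had 5.41 and -1.35. The AP-1 factor Fosl2 had -1.73 and 1.29. The casein-low cells of the plates differ in casein level, so the contrasts are not alike.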

How the results depend on the processing

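The counts of 622 genes higher and 745 lower in casein-high cells moved most with the number of cells and the filter. In well columns 1 to 12 alone (22 and 25 cells, without the condition on both column ranges) they were 1197 and 1443, and in columns 13 to 24 alone 1239 and 1212. Only cells with an eGFP read (24 and 24) gave 978 and 1270. Requiring at least 3 of Kit, Elf5, Aldh1a3 and Ltf gave 1003 genes higher. Genes at 1 CPM or more read in any share of cells gave 1519 and 1840, and comparing the upper with the lower 78 cells gave 472 genes lower. Median-of-ratios scaling moved the split to 683 higher and 694 lower. The median of the fatty acid synthesis list was 0.49, with 0.64, past 1.5-fold, in columns 1 to 12 and -0.31 in the comparison of 78 with 78 cells. That of the milk fat list was 0.55, with -0.035 in columns 1 to 12 and 1.71 in columns 13 to 24. In all, 13 of 22 list medians took both signs over the settings, most of them from values near 0. Signs turned for the amino acid and glucose transporters (0.72 in columns 13 to 24, against -0.11), the S phase list (0.36 among cells with an eGFP read, against -0.90), Cdkn1a (0.35 in the comparison of 78 with 78 cells, against -1.28), Il4ra (-0.11 with 3 of the 4 progenitor markers, against 1.999), Erbb4 (-0.82 when ranked by mean log casein level and -0.41 among cells with an eGFP read, against 1.34) and Prlr (-1.09 in columns 13 to 24, against 0.64); the cause was not tested. Of 130 named genes in 18 settings, 96 were past 2-fold, 93 of them never turned and 57 were past it in every setting. Ranking by caseins over the non-casein total gives the same order by construction. Leaving out cells with at least 2 basal markers was chosen after seeing the data. No paired analysis was possible because no result comes from a test and each plate is 1 sample. Without animals to compare, the spread between mice is unknown, and genes with few reads or read in few cells are limited by depth.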
